A study of Mus musculus with 20 samples.

Results

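The long-term change of CD8 T cells was set against that of CD4 T cells, gene by gene, in 20 RNA libraries of cultured mouse cells. The quantity is a difference of 2 changes on the log2 scale: CD8 week 4 minus CD8 week 1, less CD4 week 3 minus CD4 week 1. Of 49671 genes in the table, 13290 had enough counts to be tested, and 87 of them (0.655%) changed differently in the 2 cell types at a Benjamini-Hochberg adjusted p under 0.05. All 20 libraries of the series and no other samples entered this comparison, 5 in each of 4 groups.

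The cells came from spleen and inguinal lymph nodes, were enriched as CD4+ or CD8+ cells, and were activated on plates coated with antibodies to CD3 and CD28 in the presence of 1 ng/mL IL-2. IL-7 at 10 ng/mL and IL-15 at 50 ng/mL then supported the expansion of every group. The week 1 groups had 4 days of expansion, the CD4 week 3 group 18 days and the CD8 week 4 group 25 days. Every group was sorted for the surface phenotype of central memory cells, CD44+ among others, to a purity above 97%, so the values describe the sorted cells of each culture. The labels name polyclonal cells from albino B6 mice, activated for 72 h, and transgenic cells from Marilyn-BLITC and MataHari-BLITC mice, activated for 24 h, and do not say which library came from which. Age is not given. Because the longer culture belongs to the CD8 cells alone, cell type and length of culture cannot be told apart in this difference. Nor can cell type and the range of sample numbers in the titles, of which CD8 has a lower (range A) and a higher one (range B) and CD4 one that is higher still. The labels name no separate animals or cultures for the 5 libraries of a group. The p-values therefore reflect the spread of these samples alone, and that spread may be technical.

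IL-7 and IL-15 are the cytokines that keep memory T cells alive without antigen, through receptors that share the common gamma chain and, for IL-15, the IL-2 receptor beta chain. CD8 cells lean towards killing and interferon production and CD4 cells towards helper functions, and the 2 lineages respond through different sets of cytokine and homing receptors. Memory T cells of the central type reach lymphoid tissue by means of homing receptors such as CCR7, and divide slowly.

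The labels were checked against lineage markers. Cd4 stood at 520 to 903 CPM (read counts scaled to a common library size) in the CD4 libraries and at 0 to 0.57 CPM in the CD8 libraries, and Cd8a stood at 644 to 1577 CPM in CD8 and at 0.05 to 17.5 CPM in CD4. The 17.5 CPM was in CD4 week 3 replicate 1, against at most 3.3 CPM in the other CD4 libraries. Cd3e, a subunit of the T cell receptor complex, stood at 336 to 645 CPM throughout. Some libraries stood apart. CD8 week 1 replicate 3 had 16.2 CPM of Zbtb7b against 38.9 to 54.8 CPM in the other CD8 week 1 libraries. CD8 week 4 replicates 1 and 2 had 43.9 and 57.2 CPM of Zbtb7b against 4.81 to 12.8 CPM in replicates 3 to 5. On the second principal component of the 1000 most variable genes, CD4 week 3 replicate 2 lay at 5.5, between the other CD4 week 3 libraries (-29.4 to -14.3) and the CD4 week 1 libraries (14.4 to 40.1). On the first (63.8% of the variance), CD4 week 1 replicate 2 (18.2) and CD4 week 3 replicate 2 (24.1) lay below the other CD4 libraries (41.7 to 69). There CD8 week 4 replicates 1 and 2 (-59 and -63.7) lay apart from replicates 3 to 5 (-28.4 to -23.5). What these libraries share beyond that was not tested, and the counts below are also given without them.

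The 87 genes divided into 33 with a higher (0.248% of genes tested) and 54 with a lower CD8 change (0.406%). At an unadjusted p under 0.05 there were 1566. The median difference was 0.72 for genes called higher and -1.80 for genes called lower, beside 0.01 over all genes tested. A difference of at least 2-fold was found for 11 of the 33 and 44 of the 54. Taken alone, the CD8 change passed the test for 33.5% of all genes tested, the CD4 change for 16.5%. In bulk RNA, fewer cells that express a gene and less RNA of it per cell cannot be told apart. In 62 of the 87 genes the larger of the 2 changes was the one in CD8. Over all genes tested, too, CD8 changes were called more often than CD4 changes (33.5% against 16.5%). Protein-coding genes made up 86 of the 87, and 70 reached a mean of 10 CPM in some group. The shares over all genes tested were not taken for these counts of 62, 86 and 70.

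**Figure D1:**
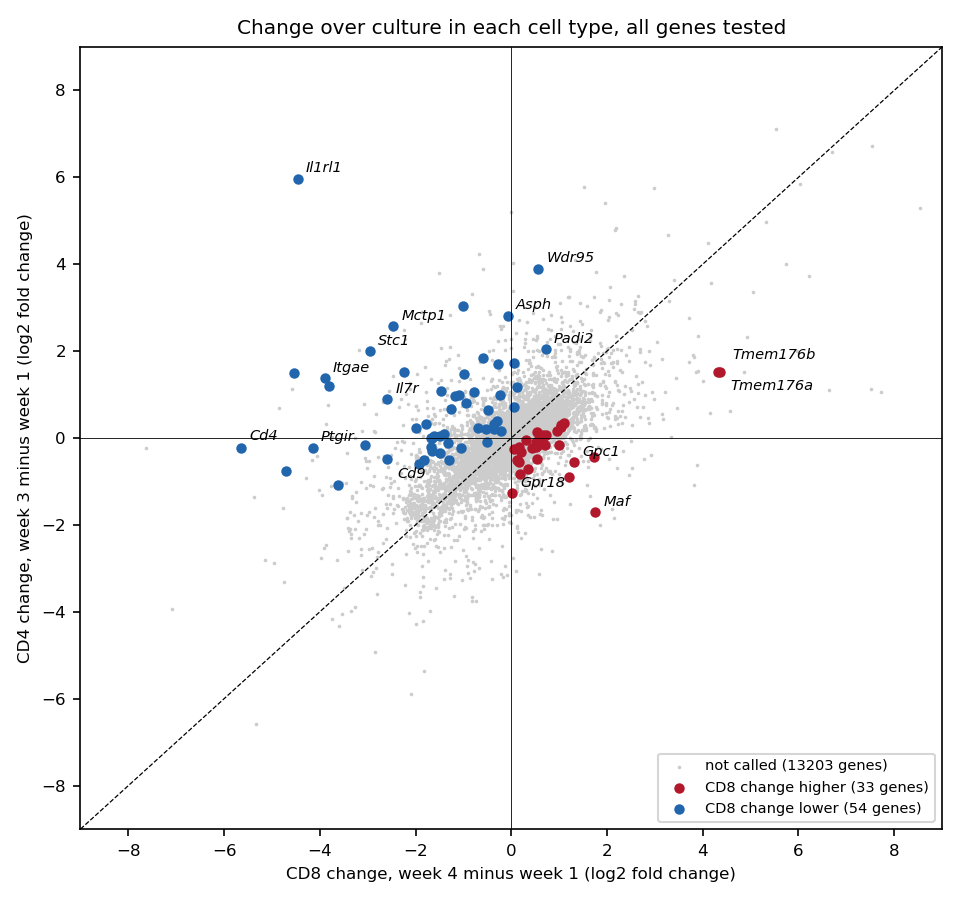
Log2 change in CD8 cells (week 4 against week 1, x axis) against log2 change in CD4 cells (week 3 against week 1, y axis) for 13290 genes; the dashed line marks equal changes, grey points are genes not called, red points the 33 with a higher and blue points the 54 with a lower CD8 change. Il1rl1 lies alone at the upper left, at -4.46 in CD8 and 5.97 in CD4, and Tmem176a and Tmem176b rose in both cell types but lie far to the right.

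By the calls of their 2 changes, the 87 genes fell into 5 kinds. In 46 genes (52.9%) the CD8 change passed and the CD4 change did not, as was so for 22.3% of all genes tested. The reverse held in 16 (18.4%), beside 5.3% of all genes tested. In 18 genes both changes passed with opposite sign, 12 of them with a fall in CD8 and a rise in CD4. Over all genes tested, 19 had opposite called changes (0.143%), while 1465 had called changes in the same direction. The remaining 7 genes changed in the same direction in both cell types, 6 of them more in CD8. The gap between CD8 and CD4 passed the test at both times in 38 genes: it widened in 19, narrowed in 9 and turned over in 10. It passed at week 1 only in 24 genes and in long-term culture only in 25. For these gap counts, no share over all genes tested was taken. In 63 of the 87 genes the CD8 libraries of the 2 times did not overlap, as was so for 20.8% of all genes tested. For the CD4 libraries this held in 23 of the 87, beside 8.15% of all genes. These counts describe genes chosen by the same fit and carry no test.

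**Figure D2:**
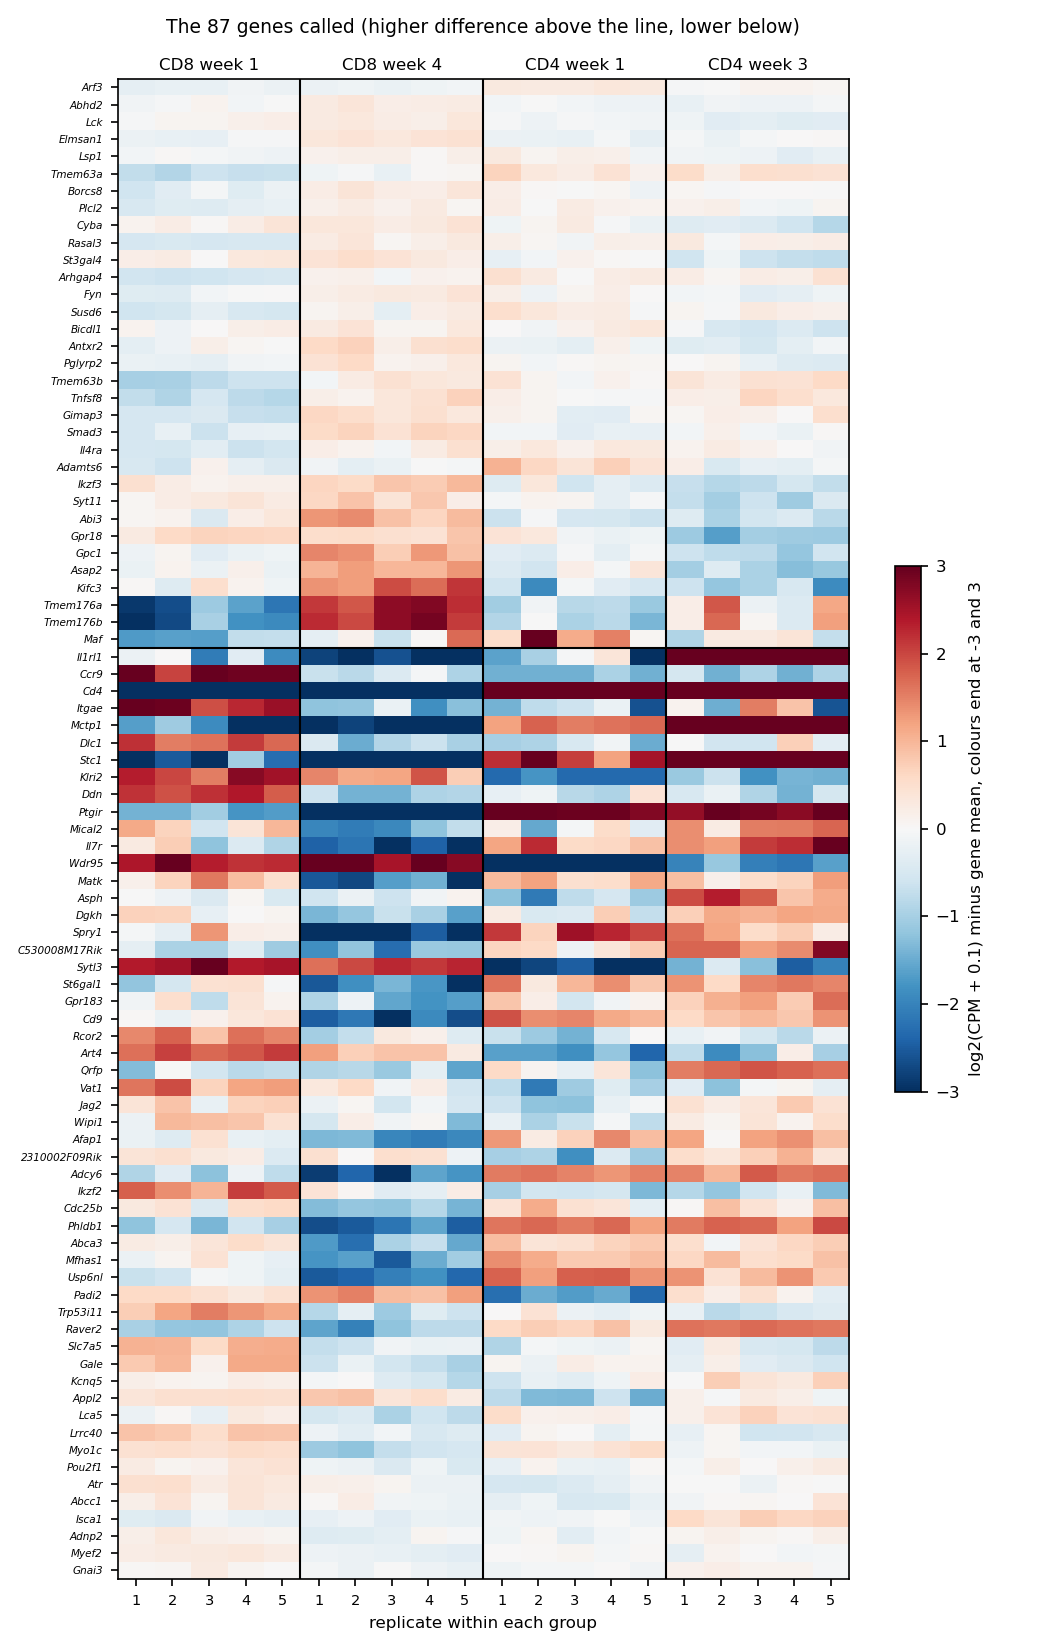
Level of the 87 genes in each of the 20 libraries, as log2(CPM + 0.1) minus the mean of the gene, with replicates 1 to 5 of each group side by side; genes above the horizontal line had a higher and genes below it a lower CD8 change. Most blue and red blocks change at the line between CD8 week 1 and week 4, where 63 genes do not overlap, and fewer at the line between CD4 week 1 and week 3, where 23 do not.

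The largest difference was that of Il1rl1 (ENSMUSG00000026069, chromosome 1, 40429570 to 40465415, GRCm38), which encodes ST2, the receptor of the alarmin IL-33. It is shown with the sequence before its RefSeq start sites because its direction was opposite in the 2 lineages. The 250 bases before each of the 2 starts read as follows 5′ to 3′ (RefSeq, GRCm38.p6, plus strand). Capitals mark GATAA, one form of the site recognised by GATA factors, on either strand, and other forms were not marked. The upstream start lies at 40429570 and the downstream one at 40439629 on chromosome 1.
Il1rl1 upstream start, chr1:40429320-40429569: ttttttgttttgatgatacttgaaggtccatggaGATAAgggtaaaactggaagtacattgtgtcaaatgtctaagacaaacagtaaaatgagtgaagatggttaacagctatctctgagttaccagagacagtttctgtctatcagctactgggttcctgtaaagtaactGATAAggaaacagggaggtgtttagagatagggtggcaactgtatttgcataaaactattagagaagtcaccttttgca
Il1rl1 downstream start, chr1:40439379-40439628: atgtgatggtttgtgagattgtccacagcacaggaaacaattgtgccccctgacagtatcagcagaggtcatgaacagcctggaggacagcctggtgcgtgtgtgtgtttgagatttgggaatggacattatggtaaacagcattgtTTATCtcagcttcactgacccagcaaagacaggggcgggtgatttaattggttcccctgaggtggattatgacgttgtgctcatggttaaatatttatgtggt
The upstream window held 2 matches and the downstream window 1, and 22.6% of the 32851 windows of this length in the table held at least 1. A match is a stretch of letters, and binding was not measured here. Gata3, the GATA factor of T helper type 2 cells, stood at 47.1 ± 14.7 to 56.1 ± 7.26 CPM over culture in CD8 and at 116 ± 37.3 to 166 ± 31.9 CPM in CD4 (mean ± SD, n = 5), with a difference of -0.26 (SE 0.32, adjusted p = 0.826).

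Il1rl1 in CD8 replicates 1 to 5 stood at 0.726, 0.834, 0.117, 0.636 and 0.151 CPM at week 1 and at 0.0357, 0, 0.0518, 0 and 0 CPM at week 4. In CD4 cells, Il1rl1 stood at 0.207, 0.376, 0.8, 1.09 and 0 CPM at week 1 and at 38.5, 22.7, 45.7, 32.9 and 16.4 CPM at week 3. All 5 CD4 week 3 libraries lay above all 15 others, and in CD8 week 4 the gene was counted with 1 read in each of 2 libraries and none in the other three. The difference was -10.44 (SE 1.11, adjusted p = 9.36e-05), from a change of -4.46 in CD8 (adjusted p = 0.00418) and 5.97 in CD4 (adjusted p = 1.7e-05). Within the CD8 title ranges, each set against all CD4 libraries, it was -9.93 and -12.33. Because the CD8 levels were below 1 CPM at both times, the size of the CD8 fall rests on 50 reads at week 1 and 2 at week 4.

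**Figure D3:**
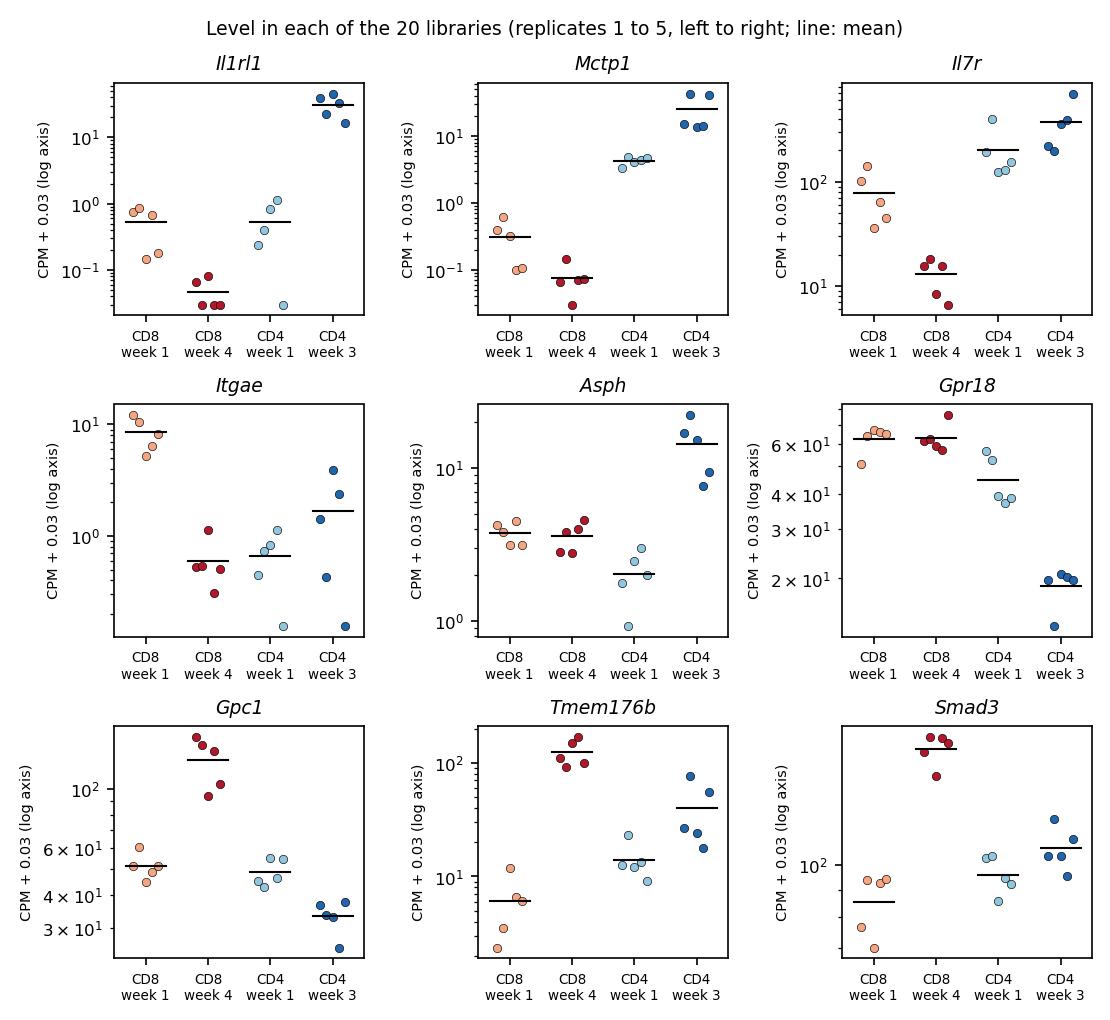
CPM + 0.03 on a log axis for 9 genes in the 20 libraries, 1 point per library in replicate order and a line at the mean of each group of 5. Il1rl1 and Asph are highest in all 5 CD4 week 3 libraries and Gpr18 is lowest there, Il7r and Itgae are lower at CD8 week 4 than at CD8 week 1 in every library, and Gpc1, Tmem176b and Smad3 are highest in all 5 CD8 week 4 libraries.

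Other genes with a fall in CD8 and a rise in CD4 included membrane proteins and receptors. Mctp1, which encodes a calcium-binding membrane protein, was near the floor in CD8. Mctp1 in CD8 replicates 1 to 5 stood at 0.363, 0.596, 0.293, 0.0707 and 0.0753 CPM at week 1 and at 0.0357, 0.113, 0, 0.0402 and 0.0435 CPM at week 4. In CD4 cells, Mctp1 stood at 3.28, 4.84, 4.1, 4.4 and 4.71 CPM at week 1 and at 15.3, 43.3, 13.9, 14 and 41.1 CPM at week 3. CD4 week 3 replicates 2 and 5 stood apart from the other three, and no CD4 library of week 3 overlapped week 1. The difference was -5.05 (SE 0.858, adjusted p = 0.00925), and -5.59 and -3.30 within the title ranges. Stc1, a secreted glycoprotein hormone, stood at 0.672 CPM or less in each CD8 library, with 19 of the 25 reads of CD8 week 1 in replicate 4, and went from 7.86 ± 3.36 to 31.3 ± 7.37 CPM in CD4, with a difference of -4.96 (SE 1.03, adjusted p = 0.0348). Gpr183, the receptor for 7alpha,25-dihydroxycholesterol that positions lymphocytes in lymphoid tissue, went from 21.3 ± 6.56 to 9.5 ± 5.13 CPM in CD8 and from 22.4 ± 8.14 to 44.1 ± 12.8 CPM in CD4, with a difference of -2.14 (SE 0.453, adjusted p = 0.0374). Between title ranges A and B the difference was uneven, at -2.77 and -6.25 for Stc1 and -1.70 and -2.96 for Gpr183. Jag2, a Notch ligand, differed by -1.83 (SE 0.328, adjusted p = 0.0135), going from 13.5 ± 3.48 to 7.92 ± 1.46 CPM in CD8 and from 6.19 ± 2.29 to 13 ± 2 CPM in CD4. The CD8 mean of Jag2 was the higher at week 1 and the lower in long-term culture.

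Smaller opposite changes were those of Kcnq5, a potassium channel, with a difference of -1.12 (SE 0.245, adjusted p = 0.0406), Abcc1, an export pump of glutathione conjugates, with -0.69 (SE 0.147, adjusted p = 0.0377), and Atr, the kinase that senses stalled replication forks, with -0.70 (SE 0.126, adjusted p = 0.0142). Atr went from 111 ± 8.42 to 86 ± 9.62 CPM in CD8 and from 66.4 ± 8.1 to 83.3 ± 4.91 CPM in CD4. Klri2, a killer lectin-like receptor, was called at -4.05 (SE 0.817, adjusted p = 0.0335) with CD4 group means of 0.114 CPM or less, a level of few reads. Mical2, Dgkh and Art4 complete the 12 genes of this direction; they were below 10 CPM in every group and are named after their values were seen.

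The opposite pattern, a rise in CD8 and a fall in CD4, was found in 6 genes. Gpc1 (ENSMUSG00000034220, chromosome 1, 92831645 to 92860779), which encodes the cell surface proteoglycan glypican 1, stood at 51.2 CPM in CD8 and 48.6 CPM in CD4 at week 1, with overlapping libraries. Gpc1 in CD8 replicates 1 to 5 stood at 51.2, 60.2, 44.6, 48.8 and 51.3 CPM at week 1 and at 157, 146, 94.3, 139 and 104 CPM at week 4. In CD4 cells, Gpc1 stood at 44.9, 42.6, 54.9, 46.1 and 54.4 CPM at week 1 and at 36.7, 33.5, 32.9, 25.3 and 37.7 CPM at week 3. The 5 CD8 week 4 libraries lay above all 15 others and the 5 CD4 week 3 libraries below all 15. The difference was 1.87 (SE 0.195, adjusted p = 9.36e-05), and 1.90 and 1.83 within the title ranges. Ikzf3, which encodes the lymphoid transcription factor Aiolos, followed the same direction. Ikzf3 in CD8 replicates 1 to 5 stood at 129, 108, 99, 103 and 103 CPM at week 1 and at 144, 137, 164, 156 and 181 CPM at week 4. In CD4 cells, Ikzf3 stood at 70.3, 117, 61, 76.8 and 69.6 CPM at week 1 and at 57.5, 50.8, 53.7, 64 and 54.9 CPM at week 3. CD4 week 1 replicate 2 was far above the rest of its group. Its difference was 1.02 (SE 0.193, adjusted p = 0.0213).

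The proximal kinase of the T cell receptor, Lck, went from 741 ± 42.7 to 833 ± 38.1 CPM in CD8 and from 654 ± 19.5 to 567 ± 38.6 CPM in CD4, a difference of 0.38 (SE 0.0826, adjusted p = 0.0409). Lsp1, an actin-binding protein of leukocytes, differed by 0.51 (SE 0.096, adjusted p = 0.0197). Maf, a factor of T helper and innate-like cells, rose in CD8 from 0.988 ± 0.397 to 3.36 ± 2.71 CPM and fell in CD4 from 7.75 ± 7.14 to 2.36 ± 0.931 CPM, a difference of 3.47 (SE 0.777, adjusted p = 0.0458) that was called in 3 of 20 fits with 1 library left out. Maf stood at 20.1 CPM in CD4 week 1 replicate 2 against 2.54 to 7.14 CPM in the other 4, and at 8.14 CPM in CD8 week 4 replicate 5 against 1.5 to 2.65 CPM. Asap2, below 10 CPM in every group, is the other gene of this kind and was named after its value was seen.

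In 29 genes with a lower CD8 change, the fall in CD8 passed the test and the CD4 change did not, among them the receptor of a culture cytokine. Il7r (ENSMUSG00000003882, chromosome 15, 9506161 to 9529876) encodes IL-7 receptor alpha, the chain specific to that cytokine and a marker of naive and memory cells. Il7r in CD8 replicates 1 to 5 stood at 102, 140, 36.4, 63.6 and 45.2 CPM at week 1 and at 15.6, 18.3, 8.44, 15.7 and 6.62 CPM at week 4. In CD4 cells, Il7r stood at 192, 398, 125, 129 and 155 CPM at week 1 and at 221, 196, 360, 393 and 698 CPM at week 3. All 5 CD8 week 4 libraries were below all CD8 week 1 libraries, while the CD4 libraries of the 2 times overlapped. The difference was -3.49 (SE 0.618, adjusted p = 0.0135), and -3.62 and -3.19 within the title ranges. The CD4 change of 0.90 had an adjusted p of 0.146, and CD4 week 1 replicate 2, at 398 CPM, was above 4 of the CD4 week 3 libraries.

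Further signalling genes followed the same pattern. Ptgir encodes the prostacyclin receptor. Ptgir in CD8 replicates 1 to 5 stood at 1.56, 1.55, 2.05, 1.2 and 1.28 CPM at week 1 and at 0, 0.169, 0.0518, 0.161 and 0.0435 CPM at week 4. In CD4 cells, Ptgir stood at 50, 59.3, 34.2, 34.1 and 30.1 CPM at week 1 and at 27.6, 44, 32.6, 28.7 and 45.3 CPM at week 3. In CD8 it was 0.169 CPM or less at week 4, in CD4 it lay between 27.6 and 59.3 CPM, and the difference was -3.93 (SE 0.501, adjusted p = 0.00103). Matk encodes a kinase that inhibits Src family kinases. Matk in CD8 replicates 1 to 5 stood at 21, 30.3, 56.4, 36.2 and 26.9 CPM at week 1 and at 3.14, 2.76, 5.9, 6.92 and 1.87 CPM at week 4. In CD4 cells, Matk stood at 36.8, 44, 26.5, 27.3 and 41.6 CPM at week 1 and at 35.6, 21, 27.1, 30.2 and 45.2 CPM at week 3. The 2 cell types overlapped at week 1, and in long-term culture all CD8 libraries were below all CD4 libraries. The difference was -2.90 (SE 0.452, adjusted p = 0.00473), and -3.04 and -2.69 within the title ranges. St6gal1, the enzyme that adds alpha-2,6 sialic acid to glycoproteins, went from 62.4 ± 26.9 to 15.7 ± 7.06 CPM in CD8 and from 137 ± 46.6 to 162 ± 37.6 CPM in CD4, a difference of -2.23 (SE 0.488, adjusted p = 0.0403).

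The homing genes Itgae and Ccr9 also fell in CD8. Itgae encodes the integrin CD103, which binds E-cadherin on epithelium. Itgae in CD8 replicates 1 to 5 stood at 12.1, 10.5, 5.16, 6.44 and 8.21 CPM at week 1 and at 0.5, 0.507, 1.09, 0.281 and 0.479 CPM at week 4. In CD4 cells, Itgae stood at 0.415, 0.706, 0.8, 1.09 and 0.125 CPM at week 1 and at 1.38, 0.396, 3.9, 2.37 and 0.127 CPM at week 3. The CD8 week 4 libraries lay within the range of the CD4 libraries, and the difference was -5.28 (SE 0.907, adjusted p = 0.00998). Ccr9, the gut homing chemokine receptor, fell in CD8 from 2.16 ± 0.817 to 0.0871 ± 0.0469 CPM and had at most 2 reads in each CD4 library, with a difference of -6.03 (SE 1.23, adjusted p = 0.0341). Ikzf2, which encodes the factor Helios, fell in CD8 from 14.9 ± 4.08 to 4.76 ± 1.07 CPM against 2.66 ± 0.616 to 2.65 ± 0.87 CPM in CD4, a difference of -1.64 (SE 0.344, adjusted p = 0.0358). Slc7a5, the large neutral amino acid transporter, fell in CD8 from 224 ± 31.3 to 89.4 ± 16.6 CPM and differed by -1.20 (SE 0.27, adjusted p = 0.0465), and the autophagy gene Wipi1 by -1.76 (SE 0.398, adjusted p = 0.047). Cd4 itself was called at -5.42, although it was a trace in CD8: 27 reads over the CD8 week 1 libraries and none at week 4, at least 10.1-fold lower against a floor of 3 reads over the group. The tetraspanin Cd9, named after its values were seen, fell in CD8 from 16.6 ± 2.86 to 2.75 ± 0.827 CPM against 39.8 ± 10.3 to 28.5 ± 5.77 CPM in CD4 (difference -2.11, SE 0.289, adjusted p = 0.00175), and it was called in each of the 35 alternative fits, as were Il1rl1 and Gpc1 and no other of the 87 genes.

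Genes that rose in CD8 while the CD4 change did not pass included 2 genes of cytokine response. Il4ra encodes the IL-4 receptor alpha chain. Il4ra in CD8 replicates 1 to 5 stood at 506, 499, 573, 455 and 489 CPM at week 1 and at 829, 770, 680, 849 and 1003 CPM at week 4. In CD4 cells, Il4ra stood at 812, 888, 789, 898 and 872 CPM at week 1 and at 770, 844, 787, 720 and 662 CPM at week 3. CD8 week 4 libraries overlapped those of CD4 week 1, and all lay above CD8 week 1. The difference was 0.88 (SE 0.13, adjusted p = 0.00348), and 0.70 and 1.14 within the title ranges. Smad3 encodes a transcription factor of the TGF-beta pathway. Smad3 in CD8 replicates 1 to 5 stood at 76.7, 93.7, 70.1, 92.6 and 94.3 CPM at week 1 and at 163, 174, 147, 173 and 169 CPM at week 4. In CD4 cells, Smad3 stood at 103, 104, 85.8, 94.5 and 92.1 CPM at week 1 and at 104, 122, 104, 95.4 and 112 CPM at week 3. The 5 CD8 week 4 libraries were above all 15 others, and the difference was 0.79 (SE 0.127, adjusted p = 0.00615).

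Gimap3, a GTPase of lymphocyte survival, rose in CD8 from 897 ± 75.2 to 1830 ± 170 CPM against 1277 ± 202 to 1522 ± 213 CPM in CD4, a difference of 0.78 (SE 0.157, adjusted p = 0.0335). Gimap5 is a close relative, and how reads shared by both were counted can move the level of Gimap3. Abi3, an actin regulator, rose in CD8 from 25.5 ± 4.71 to 51 ± 11.6 CPM against 17.8 ± 3.41 to 15.9 ± 2.59 CPM in CD4 (difference 1.16, SE 0.241, adjusted p = 0.0348), and the ion channel gene Tmem63b differed by 0.75 (SE 0.162, adjusted p = 0.0389). Fyn, another Src family kinase of the T cell receptor, rose in CD8 from 286 ± 36.3 to 390 ± 24.4 CPM against 335 ± 31.2 to 284 ± 25.1 CPM in CD4 (difference 0.68, SE 0.127, adjusted p = 0.018).

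In 16 genes the CD4 change passed and the CD8 change did not. Asph encodes an aspartate beta-hydroxylase of the endoplasmic reticulum. Asph in CD8 replicates 1 to 5 stood at 4.2, 3.81, 3.11, 4.46 and 3.09 CPM at week 1 and at 2.79, 3.77, 2.74, 3.94 and 4.57 CPM at week 4. In CD4 cells, Asph stood at 1.74, 0.894, 2.45, 2.98 and 1.96 CPM at week 1 and at 16.9, 22.2, 15.2, 7.61 and 9.34 CPM at week 3. CD8 libraries of the 2 times overlapped between 2.74 and 4.57 CPM, and all CD4 week 3 libraries were above every other library. The difference was -2.89 (SE 0.419, adjusted p = 0.00316). Sytl3, an effector of Rab27 in vesicle transport, rose in CD4 from 0.891 ± 0.395 to 3.19 ± 1.86 CPM and stood far above that in CD8, at 52.9 ± 17.9 to 35.1 ± 5.96 CPM (difference -2.44, SE 0.478, adjusted p = 0.0269). Appl2, an endosomal adaptor, rose in CD4 from 19.7 ± 5.4 to 44.3 ± 5.1 CPM against 57.3 ± 2.06 to 62.4 ± 12 CPM in CD8 (difference -1.05, SE 0.217, adjusted p = 0.0348). Raver2, an RNA-binding protein, differed by -1.23 (SE 0.266, adjusted p = 0.0389), and Wdr95, at 0.341 CPM or less in the CD4 group means, by -3.34 (SE 0.682, adjusted p = 0.0341).

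Falls in CD4 alone were led by Gpr18, a receptor for lipid mediators that is used in lymphocyte homing. Gpr18 in CD8 replicates 1 to 5 stood at 50.8, 64.2, 67.2, 66.3 and 65.1 CPM at week 1 and at 61.6, 62.6, 59.1, 57 and 76.1 CPM at week 4. In CD4 cells, Gpr18 stood at 56.7, 52.8, 39.3, 37 and 38.6 CPM at week 1 and at 19.7, 13.5, 20.7, 20.2 and 19.8 CPM at week 3. The CD8 libraries of the 2 times overlapped, and the 5 CD4 week 3 libraries were below all 15 others. The difference was 1.27 (SE 0.193, adjusted p = 0.00415), and 1.27 within each of the title ranges. Syt11, a regulator of membrane traffic, fell in CD4 from 25.2 ± 2.48 to 15.3 ± 2.78 CPM (difference 1.07, SE 0.19, adjusted p = 0.0135), Adamts6, a secreted protease, fell from 22.8 ± 4.4 to 12.9 ± 2.31 CPM (difference 1.00, SE 0.217, adjusted p = 0.0389), and Cyba, a subunit of the phagocyte NADPH oxidase, from 214 ± 28.6 to 151 ± 21.4 CPM (difference 0.64, SE 0.143, adjusted p = 0.0458). Arf3, a GTPase of the Golgi, had the smallest difference called, at 0.31 (SE 0.0673, adjusted p = 0.0406).

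In all, 7 genes moved in the same direction in both cell types and by different amounts. Tmem176a and Tmem176b, which encode related ion channels of intracellular membranes, lie head to head on chromosome 6 and rose together, so the 108 bases between their nearest RefSeq starts are shown. The start of Tmem176b lies at 48841374 on the minus strand and that of Tmem176a at 48841483 on the plus strand (RefSeq, GRCm38.p6). Capitals mark GGAAG, one form of the site recognised by ETS factors, on either strand. Other forms were not marked.
Between Tmem176b and Tmem176a, plus strand, chr6:48841375-48841482: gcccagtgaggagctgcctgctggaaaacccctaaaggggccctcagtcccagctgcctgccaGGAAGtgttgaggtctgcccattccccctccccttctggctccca
The stretch held 1 match, and 37.9% of the 32851 stretches of the same length before starts in the table held at least 1.

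Tmem176b in CD8 replicates 1 to 5 stood at 2.33, 3.46, 11.8, 6.54 and 6.1 CPM at week 1 and at 110, 92.5, 150, 170 and 100 CPM at week 4. In CD4 cells, Tmem176b stood at 12.6, 23, 12, 13.3 and 9 CPM at week 1 and at 26.9, 77, 24.1, 17.6 and 55 CPM at week 3. The 5 CD8 week 4 libraries were above all 15 others, although the CD8 mean had been the lower at week 1. The change was 4.36 in CD8 (adjusted p = 8.42e-06) and 1.52 in CD4 (adjusted p = 0.0188), with a difference of 2.84 (SE 0.586, adjusted p = 0.0347). For Tmem176a the changes were 4.32 and 1.53 and the difference 2.78 (SE 0.572, adjusted p = 0.0341). Within the title ranges the difference was 2.80 and 2.89 for Tmem176b and 2.74 and 2.84 for Tmem176a.

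Padi2, a peptidylarginine deiminase that converts arginine to citrulline, was the only one of the 7 genes with the larger rise in CD4. Padi2 in CD8 replicates 1 to 5 stood at 321, 318, 287, 259 and 291 CPM at week 1 and at 538, 605, 404, 386 and 493 CPM at week 4. In CD4 cells, Padi2 stood at 43.9, 74.7, 65.6, 74.3 and 41.5 CPM at week 1 and at 298, 243, 294, 227 and 168 CPM at week 3. Each rise was free of overlap between times, and the difference was -1.32 (SE 0.255, adjusted p = 0.0264). Spry1, a feedback inhibitor of growth factor and receptor signalling, fell in both, from 6.52 ± 3.42 to 0.521 ± 0.172 CPM in CD8 and from 20.7 ± 7.95 to 9.71 ± 3.99 CPM in CD4 (difference -2.53, SE 0.531, adjusted p = 0.0361). Tnfsf8, the ligand of CD30, rose in both, from 146 ± 15.8 to 314 ± 52.6 CPM in CD8 and from 251 ± 18.1 to 319 ± 46.6 CPM in CD4 (difference 0.76, SE 0.16, adjusted p = 0.0358). The other 2, Usp6nl and Myo1c, fell more in CD8 and were named after their values were seen.

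Of 16 genes picked for their roles in lineage, memory, function and division, 2 passed the test of the difference, Il7r and Cd4, both lower in CD8 and described above, and 14 did not. Ccr7 differed by 0.57 (SE 0.388, adjusted p = 0.625), Tcf7, a factor of stem-like memory, by -0.22 (SE 0.325, adjusted p = 0.861) and Lef1, its relative, by 0.41 (SE 0.239, adjusted p = 0.548). Cd44 differed by 0.11 (SE 0.406, adjusted p = 0.949), Il2rb, the shared receptor chain of IL-2 and IL-15, by 0.45 (SE 0.268, adjusted p = 0.559), and the survival gene Bcl2 by 0.40 (SE 0.118, adjusted p = 0.125). Foxo1, a factor that sustains memory, missed the threshold narrowly at 0.58 (SE 0.134, adjusted p = 0.0541), with 147 ± 18.4 to 227 ± 23.8 CPM in CD8 and 258 ± 28 to 267 ± 17.9 CPM in CD4. The lineage genes Cd8a, at 0.05 to 17.5 CPM in CD4, and Cd8b1 differed by -2.54 (SE 1.07, adjusted p = 0.345) and 0.48 (SE 0.626, adjusted p = 0.838). The effector genes Gzmb and Tbx21 differed by 0.22 (SE 0.629, adjusted p = 0.934) and 0.77 (SE 0.415, adjusted p = 0.499). Mki67, a gene of dividing cells, fell in CD8 from 937 ± 226 to 249 ± 48.3 CPM and went from 524 ± 134 to 180 ± 258 CPM in CD4, where replicate 2 at week 3 had 630 CPM against 21.7 to 158 CPM in the other four. Its difference was -0.37 (SE 0.856, adjusted p = 0.919), and 1.04 without that library. The SEs of the 14 ran from 0.118 to 1.07, and missing the threshold does not show that the changes were alike.

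Across pathway lists, most members called by edgeR were single genes. Of the 32 tested genes of T cell receptor signalling, 28 had a positive difference, 2 of them called (Fyn and Lck), and the median was 0.25. In CD8, 11 of the 32 rose and 1 fell, and in CD4 3 rose and 5 fell. Over all genes tested, 17.1% rose and 16.4% fell in CD8, and 7.67% rose and 8.80% fell in CD4. For comparison with this and the lists below, 6945 of all 13290 differences were positive and 6345 negative. An unadjusted p under 0.05 was found for 1566 of the 13290. The guanine exchange factor Vav1 differed by 0.39 (SE 0.102, adjusted p = 0.087) and Csk, the kinase that restrains Lck, by 0.37 (SE 0.0971, adjusted p = 0.0952). DESeq2 called 4 of the list (Csk, Fyn, Lck and Vav1), and 334 of the 13290 genes tested.

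Of 42 genes of cytokine receptors and signalling, 32 had a positive difference (median 0.30), with Il4ra called higher and Il1rl1 and Il7r lower. The common gamma chain Il2rg, which serves both IL-7 and IL-15, differed by 0.59 (SE 0.138, adjusted p = 0.0541). It went from 273 ± 26.7 to 339 ± 17.8 CPM in CD8 and from 368 ± 63.2 to 304 ± 17 CPM in CD4. DESeq2 called 7 of the 42 genes, Il2rg among them. All 8 GIMAP genes had a positive difference (median 0.58), 1 of them called by edgeR and 3 by DESeq2. In CD8, 6 of the 8 rose, while none rose or fell in CD4. Their summed level was 2917 to 3998 CPM at week 1 and 4857 to 5736 CPM at week 4 in CD8, without overlap, and 3135 to 4744 CPM and 3377 to 4955 CPM in CD4. Of 29 quiescence factors, 21 had a positive difference (median 0.39), none called by edgeR, 9 with an unadjusted p under 0.05 and 2 called by DESeq2 (Btg1 and Foxo1), and 14 rose in CD8 against 2 in CD4.

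Amino acid response and transport genes had mostly negative differences. Of 28 tested, 24 had a negative difference (median -0.48), with Slc7a5 called by edgeR, and 20 fell in CD8 against 3 in CD4. DESeq2 called 6 of them: Asns, Mthfd2, Pycr1, Slc3a2, Slc7a5 and Trib3. Asns, the asparagine synthetase, went from 68.4 ± 26.5 to 17.9 ± 1.87 CPM in CD8 and from 13 ± 6.57 to 14.4 ± 7.56 CPM in CD4 (difference -2.08, SE 0.522, adjusted p = 0.0773). The summed level of the list was 2767 to 3535 CPM in CD8 week 1 and 2374 to 2510 CPM in CD8 week 4, while the CD4 libraries spanned 2160 to 2622 CPM at week 1 and 1898 to 2549 CPM at week 3. The CD8 level thus came down to the range of the CD4 libraries.

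Killer lectin-like and natural killer cell receptor genes had a median difference of -1.59, with 14 of 17 negative and Klri2 called by edgeR. DESeq2 called 6: Klra3, Klra7, Klrc1, Klrd1, Klri2 and Klrk1. Of the 17 genes tested, 5 rose and 1 fell in CD4, from low levels. Klrd1, the CD94 chain, went from 5.97 ± 2.66 to 18.7 ± 11.1 CPM in CD4. In CD8 it went from 255 ± 47.4 to 267 ± 55.2 CPM (difference -1.59, SE 0.461, adjusted p = 0.122). The marker list of natural killer cells summed to 204 to 431 CPM in CD8 and 0.541 to 29 CPM in CD4 libraries. Most of this was Eomes and Gzma, which memory CD8 cells also express. In the CD8 group means Klrb1c stood at 11.3 and 23.4 CPM, Klre1 at 15.6 and 12.6 CPM and Klra7 at 13.9 and 5.4 CPM. These receptors stood at 0.46 CPM or less in the CD4 group means. Ncr1 stood at 0.2 and 1.69 CPM in the CD8 and at 0 and 0.0793 CPM in the CD4 group means. The part of these markers in the result was not tested.

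Interferon response genes had the highest median difference among the pathway lists, 0.98, with 46 of 49 positive. None was called by edgeR, DESeq2 or limma-voom (0 each), and 7 had an unadjusted p under 0.05, beside 1566 of the 13290 genes tested. The summed level was 6913 to 9727 CPM in the 10 CD8 libraries and 5014 to 6132 CPM in CD4 week 3. CD4 week 1 was uneven, at 9831, 22137, 9113, 3904 and 3950 CPM in replicates 1 to 5. Without CD4 week 1 replicate 2 the median was 0.24, and without any other single library it was 0.90 to 1.22. The antiviral GTPase Mx1 went from 61.2 ± 115 to 6.89 ± 8.63 CPM in CD4 (difference 3.06, SE 1.53, adjusted p = 0.455).

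All 42 G2 and mitosis genes had a negative difference (median -0.43), 0 called by edgeR, DESeq2 or limma-voom and 1 with an unadjusted p under 0.05. All 42 fell in CD8 and 11 in CD4. The sum of the list was 9421, 9069, 4437, 10719 and 10925 CPM in CD8 week 1, 2173 to 2700 CPM in CD8 week 4, and 3028 to 6415 CPM in CD4 week 1. In CD4 week 3 it was 1516, 5052, 685, 525 and 629 CPM. Without CD4 week 3 replicate 2 the median was 0.80, and without any other single library it was -0.66 to -0.34, so its sign rests on that library. Within the title ranges it was -0.16 and -0.85. Of 42 S phase genes 40 fell in CD8 and 41 in CD4, with a median difference of 0.15, 0 called by any of these tools and none with an unadjusted p under 0.05. Without CD4 week 3 replicate 2 that median was 0.67. The 84 ribosomal protein genes, 60 of which rose in CD8 and 59 in CD4, had a median difference of 0.00, with 42 positive and 42 negative. Cholesterol synthesis (0.06) and oxidative phosphorylation (0.05) had medians close to that of all genes, 0.01.

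**Figure D4:**
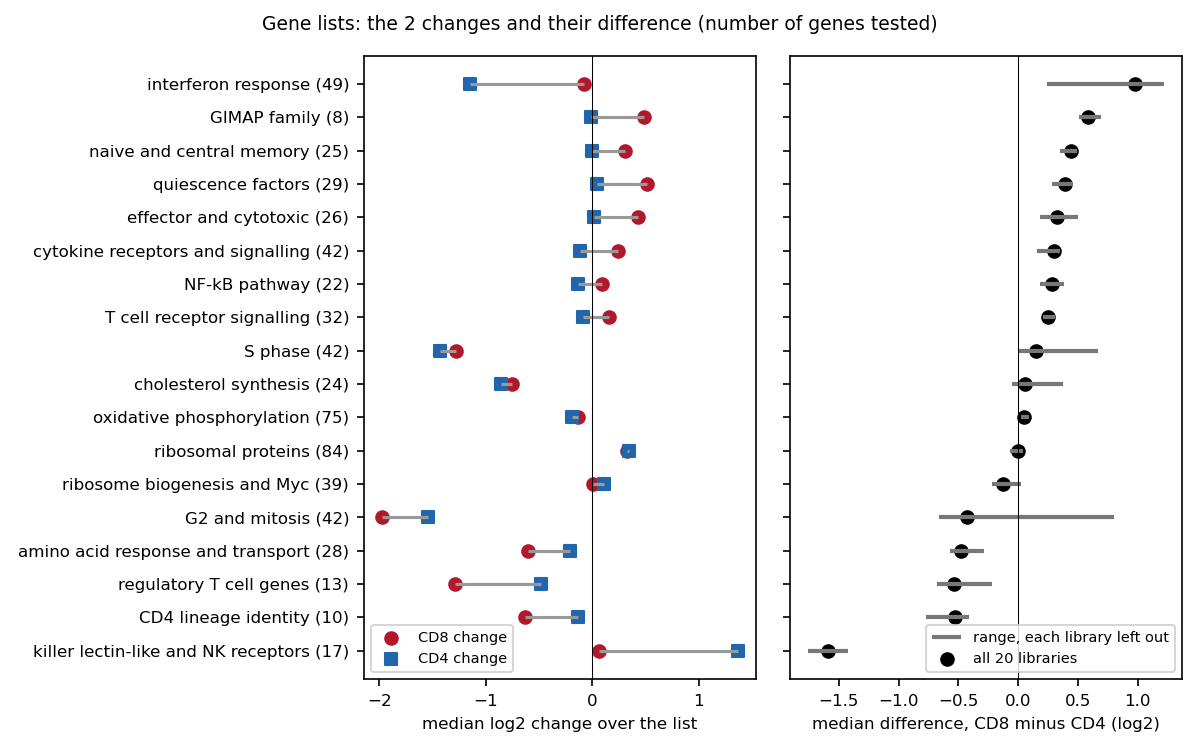
Left, the median log2 change of 18 gene lists in CD8 (red circles) and CD4 (blue squares); right, the median difference with all 20 libraries (black points) and its range over the 20 fits with 1 library left out (grey bars). S phase, cholesterol and ribosomal protein genes changed by similar medians in both cell types, the interferon response median was -1.15 in CD4 and -0.08 in CD8, and the bar of G2 and mitosis genes spans 0 (-0.66 to 0.80).

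Most markers of B, myeloid and dendritic cells were at or near 0, with the exceptions named here. B cell markers summed to 0.273 to 13.4 CPM, most of it Cd79b in CD8 libraries, with Fcer2a at 0 in every library. Myeloid markers summed to 1.57 to 26.8 CPM, highest in CD4 week 1 replicate 2, with Lyz2, S100a9 and Clec7a at 0 in every library. Most of this was Cd68 (group means of 12.2 and 11.3 CPM in CD8) and Mpeg1 (6.01 CPM in CD4 week 1). For dendritic cells the sum was 0.0422 to 57.4 CPM, nearly all Batf3 and Itgax, with Clec9a, Siglech and Cd209a at 0. The 7 mast cell and basophil markers summed to 7.73 to 74.9 CPM in CD8 week 1, 8.64 to 37.7 CPM in CD8 week 4, 0.539 to 3.55 CPM in CD4 week 1 and 3.46 to 42.3 CPM in CD4 week 3. Most of this was Kit, with group means of 34.5 and 21.5 CPM in CD8 and 1.13 and 21.2 CPM in CD4. ST2 (Il1rl1) is also a mast cell gene. Beside its rise in CD4, Kit went from a mean of 1.13 to 21.2 CPM, Cpa3 from 0.0634 to 0.497 CPM and Hdc from 0.517 to 0.446 CPM. Fcer1a, Mcpt8, Prss34 and Ms4a2 were at 0 in all CD4 libraries. All 3 tested markers of this list had a negative difference (median -4.77). Of these, 0 were called by edgeR (lowest adjusted p = 0.0581) and 2 by DESeq2 (Cpa3 and Kit). Kit and Cpa3 (1.38 CPM) were highest in CD8 week 1, where the mean of Il1rl1 was 0.493 CPM. The sum of erythroid and platelet markers reached 20.7 CPM in CD4 week 3 replicate 2 and 6.17 CPM at most elsewhere. Gamma delta T cell markers summed to 16.2 to 32 CPM in CD8 and 3.79 to 11.7 CPM in CD4 libraries. Of these, Trgv2 had CD8 group means of 15.9 and 13.2 CPM, and Trdc 6.93 and 10 CPM in CD8 and 4.3 and 7.04 CPM in CD4. Invariant NKT cell markers summed to 89.7 to 171 CPM in CD8 and 27.8 to 79.7 CPM in CD4. That was mostly Tbx21, Slamf1 and Klrb1c, with Zbtb16 and Il17rb at 0.0857 CPM or less in the group means. The part of these genes in the differences was not tested.

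The number of genes called moved with single libraries. Leaving out each of the 20 libraries in turn gave 10 to 156 genes called higher and 18 to 161 called lower. Without CD8 week 1 replicate 3, 317 genes were called, the 87 among them, and without CD8 week 1 replicate 4 there were 28, each among the 87. Every one of the 87 genes kept its sign in all 20 fits and in both CD8 title ranges. The genes were chosen by a fit that shares its libraries with these fits, so a kept sign is no separate support. In all 20 fits 25 were called, among them Il1rl1, Mctp1, Jag2, Atr, Gpc1, Il7r, Ptgir, Matk, Itgae, Il4ra, Smad3, Fyn, Asph, Gpr18 and Syt11. In fewer than 10 fits 44 were called, and these included Tmem176a, Tmem176b, Stc1, Gpr183, Ikzf2, Slc7a5, St6gal1, Abcc1, Lck, Maf, Cyba and Arf3. The count fell to between 28 and 49 without any 1 of 12 libraries: CD8 week 1 replicates 1, 2, 4 and 5, CD8 week 4 replicates 1 and 5, and replicates 1, 3 and 4 of CD4 at each time. Without CD8 week 4 replicates 1 and 2 there were 168 called, 63 of the 87 among them, and without CD4 week 3 replicate 2 and CD8 week 1 replicate 3 together 357, 83 of the 87 among them. Without CD4 week 1 replicate 2 there were 111, 74 of the 87 among them. With CD8 range A alone 25 genes were called and with range B alone 45, of which 22 and 9 were among the 87.

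**Figure D5:**
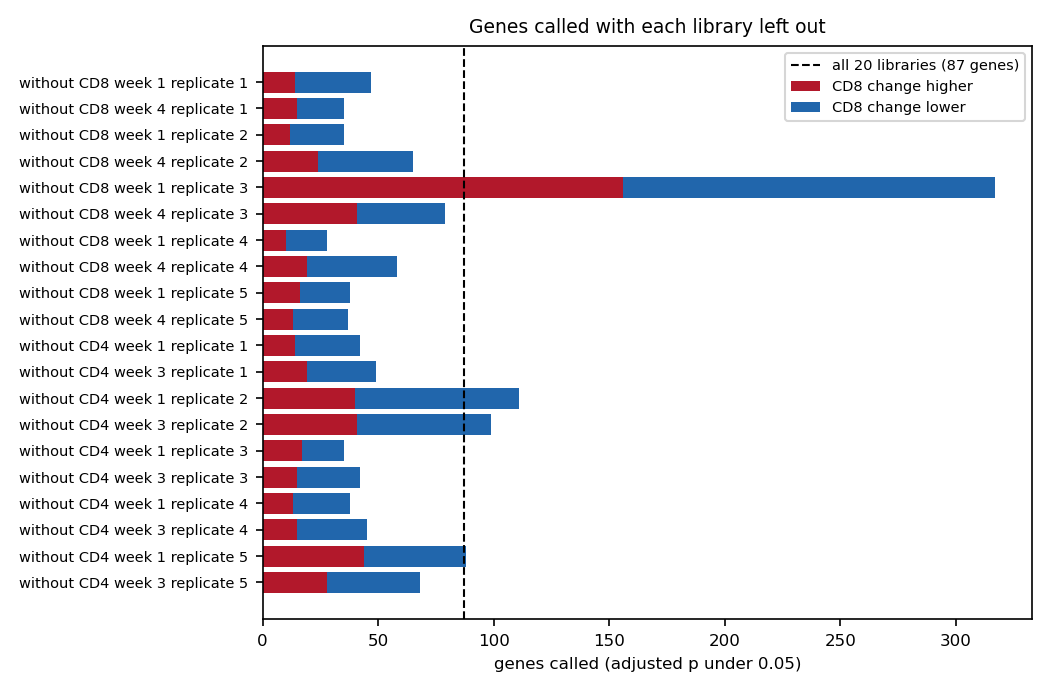
Number of genes called when each library is left out, split into those with a higher (red) and a lower (blue) CD8 change; the dashed line marks the 87 genes called with all 20 libraries. The count without CD8 week 1 replicate 3 is 317, and the lowest, without CD8 week 1 replicate 4, is 28.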

How the data were processed

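Polyadenylated RNA of 20 libraries was made into stranded libraries and sequenced. The deposited values are raw counts of reads on each gene, and the authors produced them with STAR on mm10 and featureCounts 1.6.3 (GENCODE M12, reversely stranded, per the file headers and the submitters' processing notes). No option for reads mapping to several places was set there. The other deposited column used, each gene's exon length, served only as description. Symbols came from an annotation for 49326 genes. No value column was left out. Totals ran from 13.26 to 28.34 M counts per library, at which 3 counts over a group equal 0.0263 to 0.0317 CPM.

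The fit used edgeR 4.0.16 (R 4.3.3): 4 group means, quasi-likelihood F tests, TMM scaling and the default filterByExpr. A gene was called at an adjusted p under 0.05 (Benjamini-Hochberg, 13290 genes). Every adjusted p printed is from this fit. SE is the log2 value divided by the square root of F, and CPM use TMM-scaled totals. Values after ± are SDs of 5 libraries. The steps were tested on simulated data. The labels pair no libraries. Alternatives were RLE, upper-quartile and total scaling, DESeq2 1.42.0, limma-voom (3.58.1), robust priors, 2 filters, a 1.5-fold test, title ranges and left-out libraries.

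Members and gene lists were chosen with earlier results of these data known. Genes picked by size of difference need an adjusted p under 0.05 and 10 CPM in a group. They are the 8 largest differences each way among opposite changes, and the largest among genes changed in the same direction. Where 1 cell type's change passed alone and without overlap, the 5 largest differences were taken for its rises and for its falls. Without the 10 CPM minimum, called list members and a fixed set of memory, effector and division genes were added. One gene of that set is not reported here. Figures were drawn with matplotlib 3.10.9 (Python 3.11.15).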

Additional observations from a re-analysis of the deposited data

Results flagged for a closer look

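A difference between the CD8 and the CD4 change, tested as an interaction, was found for 33 genes with a higher and 54 with a lower CD8 change. Opposite changes that both passed the test were found for Il1rl1 (-10.44), Mctp1 (-5.05), Stc1 (-4.96), Klri2 (-4.05), Gpr183 (-2.14), Jag2 (-1.83), Kcnq5 (-1.12), Atr (-0.70) and Abcc1 (-0.69), all with a lower CD8 change. They were also found for Maf (3.47), Gpc1 (1.87), Ikzf3 (1.02), Lsp1 (0.51) and Lck (0.38), all with a higher CD8 change.

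Single libraries lay far from the rest of their group by Dixon's test in 5 of 56 sets of 5 libraries, over 14 genes, where chance flags about 1 in 20 sets. The 14 are a part of the named genes and do not include Maf and Mki67, whose uneven libraries are given above. Il7r stood at 398 CPM in CD4 week 1 replicate 2 against 125 to 192 CPM in the others. Ikzf3 stood at 117 CPM in that same library against 61 to 76.8 CPM. Gpr18 stood at 50.8 CPM in CD8 week 1 replicate 1 against 64.2 to 67.2 CPM, and at 13.5 CPM in CD4 week 3 replicate 2 against 19.7 to 20.7 CPM. Itgae stood at 1.09 CPM in CD8 week 4 replicate 3 against 0.281 to 0.507 CPM.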

How the results depend on the processing

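The counts of genes called, 33 higher and 54 lower, moved by more than 1.5 times in several fits. They were 156 and 178 with DESeq2, 20 and 35 with no filter on low counts, and 2 and 11 against a 1.5-fold difference. With CD8 title range A alone they were 10 and 15, and with range B alone 24 and 21. Without CD8 week 4 replicates 1 and 2 they were 71 and 97, and without CD4 week 3 replicate 2 and CD8 week 1 replicate 3 they were 150 and 207. Leaving out 1 library at a time gave 10 to 156 higher and 18 to 161 lower. The other scalings, limma-voom, robust priors, the stricter filter and the title range as a term gave 24 to 39 higher and 43 to 63 lower.

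The labels pair no libraries. A replicate block of neighbouring title numbers gave 75 and 103 genes; the deviations of neighbours correlated at -0.113 to 0.469, not above 0.1 in every pair, so this pairing was not used.

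Genes that did not pass the test and turned sign were Mki67 (0.72 with limma-voom, 0.88 without the 2 libraries named last, 0.76 with the replicate block, and -0.65 to 1.04 with 1 library left out, the latter without CD4 week 3 replicate 2), Cd44 (-0.17 in range B, -0.05 without CD8 week 4 replicates 1 and 2, and -0.05 to 0.61 with 1 library left out) and Gzmb (-0.03 to 1.07 with 1 library left out). The cause was not tested. At 13.26 to 28.34 M counts, genes below about 1 CPM in a group, such as Il1rl1 in CD8, rest on few reads.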
